A study of Mus musculus with 29 samples.

Results

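The genes described here are 10 transcripts by which the endothelium of the blood-brain barrier is commonly recognised, namely Cldn5, Ocln, Tjp1, Slc2a1, Mfsd2a, Abcb1a, Slco1c1, Plvap, Pecam1 and Cdh5. They were taken by name out of 25746 genes in the deposited count files, with earlier results of these data known. Of these genes 10 of 10 passed the filter on low counts that left 17031 genes for testing. Their counts per sample ranged from 142 for Ocln to 6499 for Tjp1.

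RNA was sequenced from 29 brain tissue samples of mice aged 3 months, in 8 groups. The study's methods state that both sexes were used, and sex was not part of any fit here. Non-stroked samples numbered 4 from wildtype (WT) mice of the C57BL/6 background, 3 from Rag2-/- mice and 4 from NSG mice. Stroked cortex was dissected around a photothrombotic lesion of the right sensorimotor cortex 21 days post injury (dpi) in 4 WT mice, 3 WT mice given tacrolimus from day 0 (WT-Tacr acute), 5 WT mice given tacrolimus from day 7 (WT-Tacr delayed), 3 Rag2-/- mice and 3 NSG mice. Tacrolimus inhibits calcineurin and so T cell activation, and was delivered by an implanted osmotic pump. Rag2-/- mice lack mature T and B cells in every tissue, and NSG mice, of another strain background, lack NK cells as well. The labels call the non-stroked samples control without saying which tissue was taken. The study's methods name cortex from the side opposite the lesion, whereas its results speak of naïve mice, so that uninjured tissue of stroked mice and tissue of mice without a stroke cannot be told apart for these samples. No sample of mice given tacrolimus without a stroke was analysed here, so that the stroked WT, WT-Tacr acute and WT-Tacr delayed mice share 4 non-stroked WT samples for comparison.

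Endothelial cells of brain capillaries seal the space between them with tight junctions and carry few transport vesicles, so that nutrients have to pass through dedicated carriers while many drugs are pumped back into the blood. Wnt ligands from glia and neurons maintain this state through β-catenin in the endothelial cell. In vessels without a barrier, such as those of the choroid plexus, the endothelium is fenestrated and carries the diaphragm protein encoded by Plvap. After a stroke the barrier opens and is later rebuilt while new vessels form in the border of the lesion.

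Total counts per sample were between 17789044 and 43403413. The sample titles carry 1 of 2 prefixes, Imm2 in 20 samples and TF in 9 samples, with median totals of 37223696 and 23155303. The 11 non-stroked samples and the stroked Rag2-/- and NSG mice all carry Imm2, the WT-Tacr delayed mice all carry TF, and stroked WT mice (replicates 1 and 2 Imm2, 3 and 4 TF) and WT-Tacr acute mice (replicate 1 Imm2, 2 and 3 TF) carry both. What the prefixes stand for is not given in the sources used here. Titles of stroked Imm2 samples also carry a letter, f in NSG replicates 1 and 2 and Rag2-/- replicate 1, and m in the others. The letters are not explained and were not used. Several libraries stood apart. In stroked NSG replicate 1 the genes in the lowest quartile of exon length lay 0.39 above the other stroked NSG samples (median log2 difference) and those in the highest quartile differed by -0.36. In WT-Tacr acute replicates 1 and 2 the summed astrocyte markers (5 of 5 detected) were 1267 and 1161 CPM (counts scaled to library size), inside the range of non-stroked samples (1011 to 1367 CPM), whereas the other stroked samples reached 2067 to 3286 CPM. These are also the 2 samples of the series for which the deposited file and the sample title carry different sample numbers. They were assigned by the record that ties each file to its sample, and a mix-up of samples was not tested, so that WT-Tacr acute values rest on 1 sample without this doubt. The summed choroid plexus markers (9 of 9 detected, none at 0 throughout a group) varied from 4.66 to 1645 CPM between samples of several groups.

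Compared per kilobase of exon, the level in non-stroked WT mice was highest for Slc2a1 at 20.6 ± 0.995 and Tjp1 at 20.5 ± 1.81 CPM per kilobase (mean ± SD, n = 4). Cldn5 followed at 16.8 ± 2.91 CPM per kilobase, then Slco1c1 at 8.25 ± 0.656, Plvap at 6.41 ± 0.654 and Mfsd2a at 5.53 ± 0.701. Cdh5 at 4.60 ± 0.399, Abcb1a at 4.55 ± 0.388, Pecam1 at 2.87 ± 0.324 and Ocln at 1.52 ± 0.154 CPM per kilobase were the lowest. Tjp1 is also made by epithelial and other cells, so its level in brain tissue is not purely vascular. In tissue RNA of this kind, fewer cells of a type and less RNA per cell cannot be told apart.

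Each stroked group was tested against the non-stroked samples of its strain by edgeR's quasi-likelihood test, and a gene was called at an adjusted p below 0.05 (Benjamini-Hochberg over 17031 genes). In WT mice 3 of the 10 genes were called, beside 26.9% of all genes. Mfsd2a and Slc2a1 rose (15.2% of all genes rose) and Cldn5 fell (11.6% fell). In WT-Tacr acute mice 2 of 10 were called beside 8.54% of all genes, in Rag2-/- mice 2 of 10 beside 8.23% and in NSG mice 2 of 10 beside 21.9%, and in each of these Mfsd2a and Slc2a1 rose. In WT-Tacr delayed mice 5 of 10 were called beside 55.2% of all genes. There Mfsd2a, Slc2a1 and Abcb1a rose and Tjp1 and Plvap fell. The share of the 10 genes called was thus close to that of all genes in WT, NSG and delayed mice. The samples of stroked and non-stroked mice did not overlap for 4 of 10 genes in WT (beside 29.8% of all genes), 4 in WT-Tacr acute (19.6%), 5 in WT-Tacr delayed (54%), 2 in Rag2-/- (35.7%) and 2 in NSG mice (25%). The median log2 fold change over the 10 genes was -0.17 in WT mice, where that of all genes was near 0. Over the 8 groups together 6 of 10 genes differed, beside 67.4% of all genes.

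**Figure D1:**
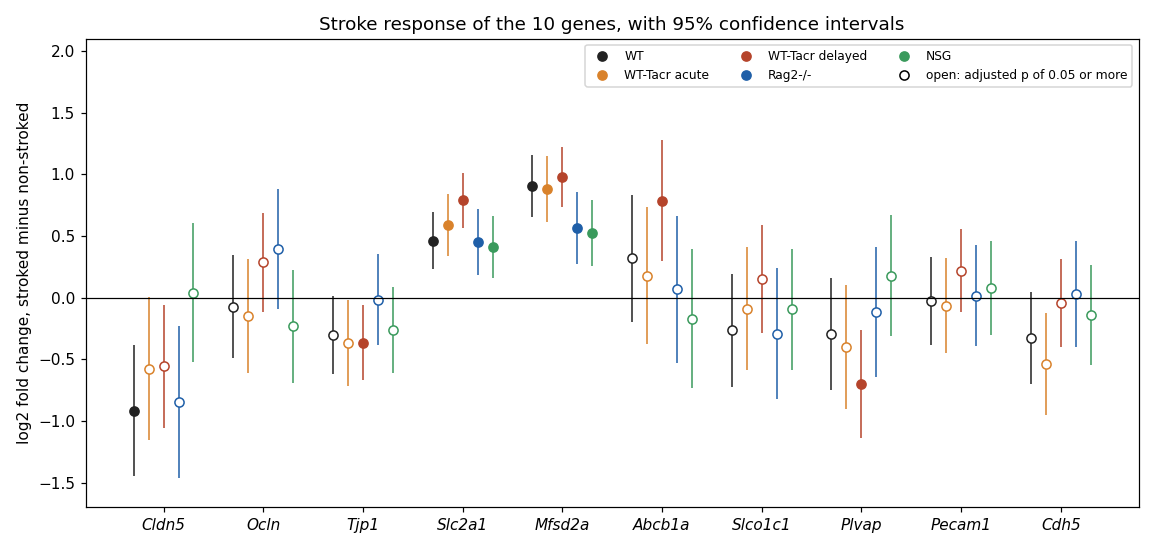
Fitted log2 fold change of each of the 10 genes in stroked over non-stroked mice of the same strain (y axis), with 95% confidence intervals, for 5 groups of stroked mice. Filled points passed an adjusted p of 0.05 (edgeR). Slc2a1 and Mfsd2a are filled and above 0 in 5 of 5 comparisons, from 0.41 to 0.79 and from 0.53 to 0.98, while Cldn5 lies below 0 in 4 of 5.

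The carriers of glucose and lipid gave the response shared by the stroked groups. Mfsd2a encodes the carrier of lysophosphatidylcholine with docosahexaenoic acid and holds down vesicular transport across the endothelium. Slc2a1 encodes GLUT1, the glucose carrier of brain endothelium that astrocytes make as well. Both lie on chromosome 4, Slc2a1 at chr4:119108711-119137983 on the plus strand and Mfsd2a at chr4:122946850-122961188 on the minus strand (GRCm38, GENCODE M21).

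Since these genes moved together and Cldn5 moved against them, the 250 bases before their start sites are shown, taken from RefSeq on GRCm38.p6 and written 5′ to 3′ on the strand of the gene. A RefSeq promoter was matched for 7 of the 10 genes. The capitals mark ACGTG, the core of the hypoxia response element, and CTTTGA, the core bound by TCF/LEF factors of the Wnt pathway, both searched on either strand, in which they do not overlap each other. Of 32851 promoter windows of this length in the table, 16.6% hold the former and 13.8% the latter. Other motifs were searched on either strand and were not in these 3 windows, namely the ETS factor core CCGGAA (12% of all windows) and the FOX factor core TGTTTAC (3.17% of all windows). A match is a description of the letters and not of a bound site.
Slc2a1, chr4:119108495-119108744, plus strand: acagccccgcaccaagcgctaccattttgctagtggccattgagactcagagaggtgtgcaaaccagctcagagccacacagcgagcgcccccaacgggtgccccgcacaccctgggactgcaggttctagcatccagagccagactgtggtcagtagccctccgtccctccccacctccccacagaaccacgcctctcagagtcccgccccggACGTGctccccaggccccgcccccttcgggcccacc
Mfsd2a, chr4:122961189-122961438, minus strand: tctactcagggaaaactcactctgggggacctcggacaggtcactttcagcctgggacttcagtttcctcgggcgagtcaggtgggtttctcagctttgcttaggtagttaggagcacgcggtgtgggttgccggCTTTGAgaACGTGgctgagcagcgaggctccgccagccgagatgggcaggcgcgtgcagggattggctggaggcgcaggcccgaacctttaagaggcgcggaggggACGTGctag
Cldn5, chr16:18776597-18776846, plus strand: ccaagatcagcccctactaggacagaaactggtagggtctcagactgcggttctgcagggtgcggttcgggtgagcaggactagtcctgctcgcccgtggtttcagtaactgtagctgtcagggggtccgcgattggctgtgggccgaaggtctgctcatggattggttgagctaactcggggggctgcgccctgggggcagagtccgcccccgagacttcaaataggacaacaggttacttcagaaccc
The Slc2a1 window holds ACGTG 1 time, beginning at base -36 from the RefSeq start site. This window runs to base 119108744, past the GENCODE start at 119108711, so that part of the ACGTG lies inside the GENCODE gene. The Mfsd2a window holds it 2 times, at bases -107 and -9, with 1 CTTTGA at base -115. In the Cldn5 window none of the 4 motifs was found. Of the other 4 genes with a RefSeq promoter, Abcb1a, whose listed start lies before its GENCODE start, held CTTTGA 2 times and the FOX motif 1 time, Ocln held the ETS motif 1 time in 1 of its 2 listed promoters, and Slco1c1 and Tjp1 held none.

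Mfsd2a measured 11.5, 11.04, 12.7 and 14.6 CPM in the 4 non-stroked WT mice and 17.7, 21.7, 27.6 and 26.5 CPM in the 4 stroked WT mice. In WT-Tacr acute mice it measured 23.9, 23.9 and 21.0 CPM, and in WT-Tacr delayed mice 28.2, 23.1, 21.6, 23.95 and 26.0 CPM. In these WT mice no stroked sample came down to a non-stroked one. Rag2-/- mice measured 13.6, 13.0 and 12.2 CPM without and 19.5, 21.2 and 16.8 CPM with stroke. NSG mice measured 13.9, 14.4, 14.1 and 13.7 CPM without and 22.4, 21.4 and 16.7 CPM with stroke. Mfsd2a was thus higher in 18 of 18 stroked samples than in any of the 11 non-stroked samples of 3 strains, a separation upward that 0.945% of all genes shared, and in 9 of 9 stroked samples within Imm2, shared by 2.25% of all genes. The log2 fold change was 0.91 (SE 0.12, adjusted p = 2.86e-05) in WT, 0.88 (SE 0.13, adjusted p = 0.00055) in WT-Tacr acute, 0.98 (SE 0.12, adjusted p = 9.1e-07) in WT-Tacr delayed, 0.57 (SE 0.14, adjusted p = 0.0128) in Rag2-/- and 0.53 (SE 0.13, adjusted p = 0.00626) in NSG mice, by edgeR. The WT-Tacr delayed value compares TF with Imm2 samples, so that prefix and stroke cannot be told apart there without the other groups. In the test of the prefix described below, TF minus Imm2 was 0.23 for Mfsd2a (adjusted p = 0.167, edgeR). Within Imm2 the rise was 0.67 in WT (adjusted p = 0.00318, beside 9.11% of all genes called), 0.58 in Rag2-/- (adjusted p = 0.00599, beside 10.6%) and 0.52 in NSG mice (adjusted p = 0.00527, beside 22.8%).

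Slc2a1 measured 67.7, 73.2, 71.6 and 76.1 CPM in non-stroked WT mice and 86.6, 82.7, 127.5 and 101 CPM in stroked WT mice. WT-Tacr acute mice lay at 105, 112 and 109 CPM and WT-Tacr delayed mice at 123, 126, 113, 123 and 140 CPM. The stroked WT samples were all above the non-stroked ones, and the 2 TF samples among them were the higher pair. Rag2-/- mice measured 63.7, 71.6 and 60.6 CPM without and 103, 95.3 and 69.95 CPM with stroke, and NSG mice 65.5, 59.2, 65.2 and 64.1 CPM without and 91.1, 86.9 and 75.3 CPM with stroke. Of 18 stroked samples 16 exceeded every non-stroked sample, and stroked Rag2-/- replicate 3 and stroked NSG replicate 3 did not. The log2 fold change was 0.46 (SE 0.11, adjusted p = 0.00422) in WT, 0.59 (SE 0.12, adjusted p = 0.00661) in WT-Tacr acute, 0.79 (SE 0.11, adjusted p = 3.28e-06) in WT-Tacr delayed, 0.45 (SE 0.13, adjusted p = 0.0297) in Rag2-/- and 0.41 (SE 0.12, adjusted p = 0.0174) in NSG mice (edgeR). Within Imm2 the call held in Rag2-/- (0.46, adjusted p = 0.0116) and NSG mice (0.40, adjusted p = 0.0121), but in WT mice, with 2 stroked samples left, the value was 0.23 (adjusted p = 0.244). With the prefix as a covariate Slc2a1 did not pass in WT (0.31, adjusted p = 0.0803) or WT-Tacr acute mice (0.40, adjusted p = 0.218). For Slc2a1 too the WT-Tacr delayed value compares TF with Imm2 samples, and TF minus Imm2 was 0.29 (adjusted p = 0.0509, edgeR).

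Neither call in Rag2-/- mice held in every subset. Without stroked Rag2-/- replicate 1 the values were 0.55 for Mfsd2a (adjusted p = 0.0579) and 0.34 for Slc2a1 (adjusted p = 0.243), and without stroked replicate 2 or non-stroked replicate 4 neither passed (adjusted p = 0.0567 and 0.0649 for Mfsd2a, 0.0919 and 0.128 for Slc2a1). Without non-stroked Rag2-/- replicate 1 the Slc2a1 value was 0.44 (adjusted p = 0.107). The Slc2a1 calls were also lost in NSG mice without stroked replicate 1 (0.35, adjusted p = 0.0977) and in WT-Tacr acute mice without replicate 3 (0.59, adjusted p = 0.071). When WT-Tacr acute replicates 1 and 2, whose astrocyte markers lay at the level of non-stroked samples, were left out together, the remaining sample still gave 0.75 for Mfsd2a (adjusted p = 0.00893) and 0.60 for Slc2a1 (adjusted p = 0.021), with its spread assumed to be that of the other groups. These are the 2 samples whose file and title numbers differ.

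**Figure D2:**
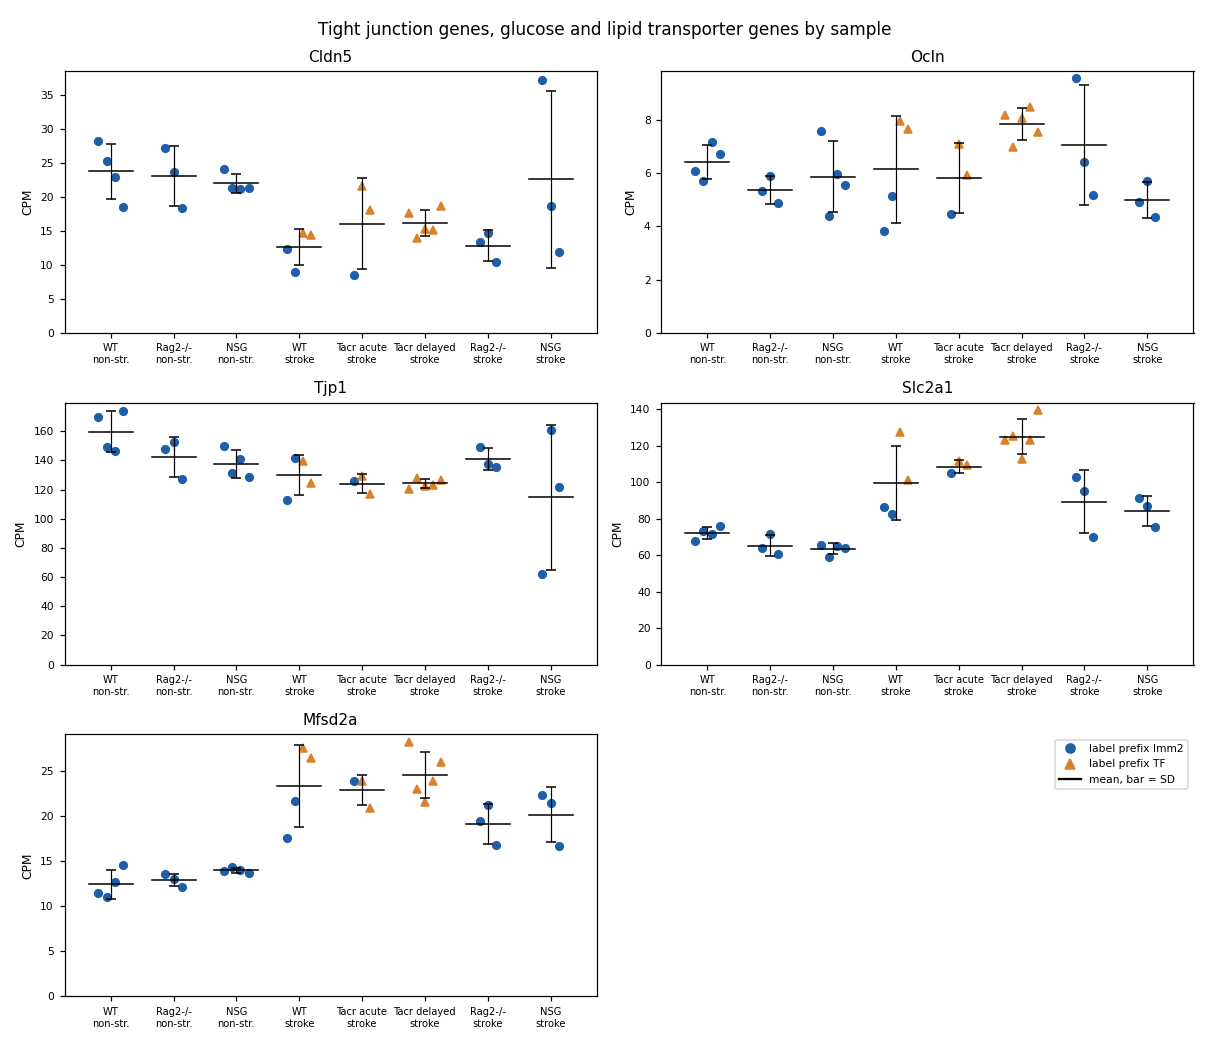
CPM (y axis, starting at 0) of Cldn5, Ocln, Tjp1, Slc2a1 and Mfsd2a in each of 29 samples, by group (x axis), with the group mean as a line, the SD as a bar and the title prefix as colour and shape. Mfsd2a lies between 11.04 and 14.6 CPM in the non-stroked and between 16.7 and 28.2 CPM in the stroked samples, and 1 stroked NSG sample stands at 37.1 CPM for Cldn5 and 61.9 CPM for Tjp1.

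Among the tight junction genes, Cldn5 showed the clearest decrease. It encodes claudin-5, the principal claudin of brain endothelium (chr16:18776847-18778262, plus strand). Cldn5 measured 28.3, 25.3, 22.9 and 18.5 CPM in non-stroked and 12.4, 8.95, 14.7 and 14.5 CPM in stroked WT mice, and these groups did not overlap. WT-Tacr acute mice measured 8.57, 21.6 and 18.0 CPM and WT-Tacr delayed mice 17.7, 13.95, 15.4, 15.1 and 18.7 CPM. In both of these groups the highest sample reached the lowest non-stroked sample. Rag2-/- mice measured 27.2, 23.7 and 18.4 CPM without and 13.4, 14.7 and 10.4 CPM with stroke, again without overlap. NSG mice measured 24.1, 21.3, 21.2 and 21.4 CPM without and 37.1, 18.6 and 11.9 CPM with stroke. The stroked NSG samples thus reached from the level of stroked WT mice to above every sample of the other groups.

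Cldn5 fell in WT mice by 0.92 on the log2 scale (SE 0.26, 0.53-fold, adjusted p = 0.0113, edgeR), and the call held when any 1 of these 8 samples was left out (adjusted p at most 0.0413). In Rag2-/- mice the log2 fold change was -0.84 (SE 0.30), which did not pass (adjusted p = 0.0815). It passed there with DESeq2 (-0.85, adjusted p = 0.0383), with only these groups in the fit (-0.83, adjusted p = 0.0103) and with the prefix as a covariate (-0.84, adjusted p = 0.0376). The values were -0.57 (SE 0.28, adjusted p = 0.183) in WT-Tacr acute, -0.56 (SE 0.24, adjusted p = 0.054) in WT-Tacr delayed mice, where DESeq2 called the decrease (adjusted p = 0.0393), and 0.04 (SE 0.27, adjusted p = 0.932) in NSG mice. Without stroked NSG replicate 1 the NSG value was -0.52 (SE 0.26, adjusted p = 0.22). Of 18 stroked samples 14 lay below every non-stroked sample. Averaged over WT, Rag2-/- and NSG mice within Imm2, an estimate chosen after the levels by sample were seen, Cldn5 fell by 0.65 (SE 0.16, adjusted p = 0.0047), and by 0.83 (SE 0.12, adjusted p = 3.6e-05) without stroked NSG replicate 1, where 34.6% and 36.8% of all genes were called. With 1416 exon bases Cldn5 lies at the 7.3rd percentile of length among the genes tested, and the part of length in the level of stroked NSG replicate 1 was not tested for single genes.

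Ocln encodes occludin, a membrane protein of the junction strand, and Tjp1 encodes ZO-1, which ties the strand to actin. Ocln did not pass in any of the 5 stroke comparisons, with log2 fold changes from -0.23 in NSG mice to 0.40 in Rag2-/- mice. Its samples ranged from 3.81 to 9.55 CPM with stroke and from 4.37 to 7.58 CPM without. In stroked WT mice Ocln measured 3.81 and 5.14 CPM in the Imm2 and 7.64 and 7.95 CPM in the TF samples. Within Imm2 its WT stroke value was -0.51 (adjusted p = 0.196, edgeR). Tjp1 lay at 170, 149, 146 and 174 CPM in non-stroked WT, 113, 142, 140 and 125 CPM in stroked WT and 120, 128, 123, 124 and 127 CPM in WT-Tacr delayed mice. Both groups of stroked WT mice were below the non-stroked samples without overlap, and so were WT-Tacr acute mice at 126, 129 and 117 CPM. Tjp1 fell in WT-Tacr delayed mice by 0.36 (SE 0.15, adjusted p = 0.0384), whereas the values of -0.30 (adjusted p = 0.15) in WT and -0.37 (adjusted p = 0.161) in WT-Tacr acute mice did not pass. The delayed call was lost without any 1 of non-stroked WT replicates 1 or 5 (adjusted p = 0.0897 and 0.0995) or delayed replicates 1, 3, 4 or 5 (adjusted p from 0.0549 to 0.065), and with the prefix as a covariate the value was -0.38 (adjusted p = 0.311). Stroked NSG mice measured 61.9, 161 and 122 CPM, and replicate 1 was again the one that stood apart, here on the low side. Tjp1 has 7811 exon bases, at the 83.1st percentile of length.

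**Figure D3:**
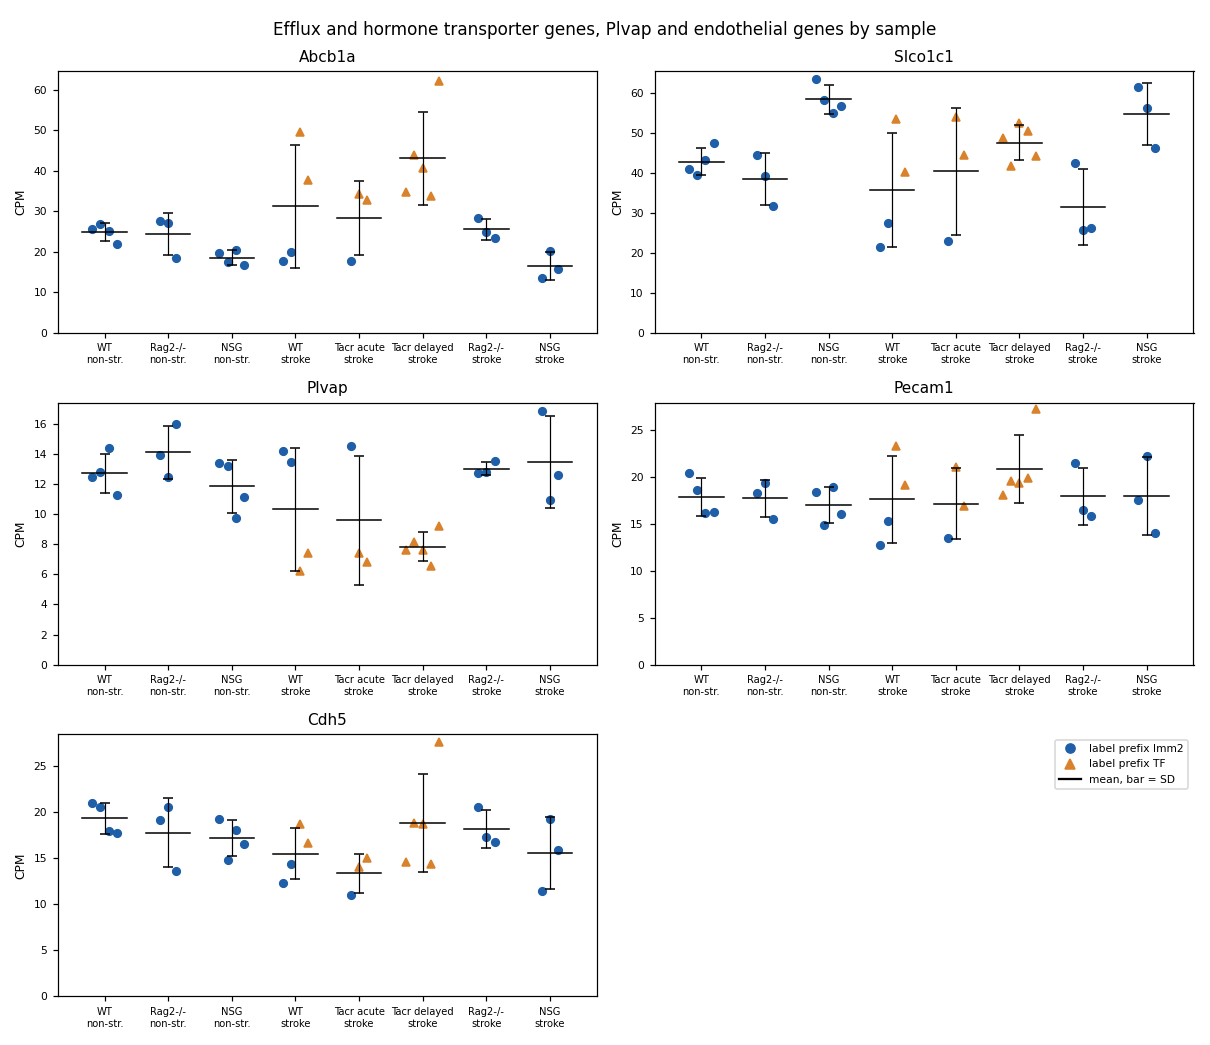
CPM (y axis, starting at 0) of Abcb1a, Slco1c1, Plvap, Pecam1 and Cdh5 in each of 29 samples by group (x axis), drawn with group means, SDs and title prefixes. In stroked WT and WT-Tacr acute mice the TF samples (triangles) lie apart from the Imm2 samples (circles) for Abcb1a, Slco1c1 and Plvap.

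Abcb1a encodes the efflux pump P-glycoprotein at the blood side of the capillary (chr5:8660077-8748575, plus strand). It measured 25.7, 26.9, 25.2 and 21.9 CPM in non-stroked WT, 17.7, 20.1, 49.6 and 37.8 CPM in stroked WT, 17.8, 34.2 and 32.9 CPM in WT-Tacr acute and 34.9, 43.9, 40.6, 33.9 and 62.3 CPM in WT-Tacr delayed mice. The 3 lowest of these stroked samples were the 3 that carry Imm2, and they lay below the non-stroked WT samples, while the 9 TF samples lay above them. Abcb1a rose in WT-Tacr delayed mice by 0.79 (SE 0.24, adjusted p = 0.00757), a comparison of TF with Imm2 samples in which prefix and stroke cannot be told apart without the other groups. With the prefix as a covariate, estimated from stroked WT and WT-Tacr acute mice, the value was -0.30 (SE 0.23, adjusted p = 0.453). Rag2-/- mice lay between 18.5 and 28.4 CPM with or without stroke. Abcb1a has a paralog, Abcb1b, and how the counting divided reads between them is not given in the sources used here.

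Slco1c1 encodes OATP1C1, which carries thyroxine across the barrier and is also made by astrocytes and choroid plexus epithelium. It measured 41.0, 39.6, 43.1 and 47.4 CPM in non-stroked WT and 21.6, 27.6, 53.5 and 40.3 CPM in stroked WT mice. NSG mice had the highest means, with 63.4, 58.2, 55.1 and 56.8 CPM without and 61.5, 56.3 and 46.3 CPM with stroke. The non-stroked NSG samples did not overlap with those of non-stroked WT mice or of Rag2-/- mice (44.5, 39.3 and 31.7 CPM). No stroke comparison called Slco1c1 over both prefixes. Within Imm2 it fell in WT mice by 0.79 (SE 0.19, adjusted p = 0.0112), and averaged over 3 strains it fell by 0.39 (SE 0.10, adjusted p = 0.00531). The choroid plexus marker sum in the Imm2 WT samples was 14.3 and 16.6 CPM with stroke and from 11.1 to 841.5 CPM without, and its part in the Slco1c1 values was not tested.

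Plvap marks fenestrated and newly forming endothelium and is low in an intact barrier. It measured 12.5, 12.8, 14.4 and 11.3 CPM in non-stroked WT, 14.2, 13.5, 6.26 and 7.39 CPM in stroked WT, 14.5, 7.45 and 6.80 CPM in WT-Tacr acute and 7.60, 8.16, 7.61, 6.56 and 9.23 CPM in WT-Tacr delayed mice. The 9 TF samples, from 6.26 to 9.23 CPM, all lay below the 20 Imm2 samples, from 9.72 to 16.9 CPM. Plvap fell in WT-Tacr delayed mice by 0.70 (SE 0.21, adjusted p = 0.00754), and with the prefix as a covariate the value was 0.32 (SE 0.18, adjusted p = 0.298). Rag2-/- mice measured 14.0, 12.5 and 16.0 CPM without and 12.8, 12.8 and 13.5 CPM with stroke, and NSG mice 13.4, 13.2, 9.72 and 11.1 CPM without and 16.9, 10.9 and 12.6 CPM with stroke. In both strains the groups overlapped and no test passed (adjusted p = 0.856 and 0.62). An increase of Plvap with stroke was therefore not detected in any of the 5 comparisons. Its level in non-stroked WT mice, 6.41 CPM per kilobase, was above Cdh5 at 4.60 and Pecam1 at 2.87. Over the 29 samples its log2 CPM had a correlation of -0.53 with Pecam1 and -0.17 with Cdh5. Which cells gave the Plvap counts was not tested, so these values do not describe fenestrated vessels. On chromosome 8 Plvap overlaps Gtpbp3 on the opposite strand with 0 shared exon bases, and the mean Gtpbp3 level in stroked WT mice was 18.0 CPM in Imm2 and 18.3 CPM in TF samples.

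Pecam1 encodes CD31, which leukocytes and platelets carry too, and Cdh5 encodes VE-cadherin of the adherens junction. Both mark endothelium with or without a barrier, and both passed in 0 of the 5 stroke comparisons (edgeR) and in 0 with DESeq2. At an unadjusted p below 0.05, Cdh5 in WT-Tacr acute mice was the 1 value reached, at -0.54 (SE 0.20, adjusted p = 0.0855). Pecam1 had group means from 17.0 to 20.8 CPM over the 8 groups and Cdh5 from 13.4 to 19.4 CPM. In stroked WT mice Pecam1 measured 12.7 and 15.3 CPM in the Imm2 and 19.15 and 23.3 CPM in the TF samples. Non-stroked WT mice lay between 16.2 and 20.4 CPM. Within Imm2 the WT stroke value was -0.34 for Pecam1 (adjusted p = 0.253) and -0.53 for Cdh5 (adjusted p = 0.0983, edgeR), and neither passed. Cdh5 measured 21.0, 20.6, 18.0 and 17.8 CPM in non-stroked and 12.3, 14.4, 18.7 and 16.7 CPM in stroked WT mice.

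As values without a test, each gene was also expressed relative to Cdh5 in the same sample. In non-stroked WT, Rag2-/- and NSG mice the ratio of Cldn5 to Cdh5 ran from 1.04 to 1.44, and in stroked WT and Rag2-/- mice from 0.617 to 1.01. In the other stroked groups it ran from 0.78 to 1.53 in WT-Tacr acute and from 0.677 to 1.21 in WT-Tacr delayed mice, and it was 3.23, 0.965 and 0.749 in NSG mice, so that each of these groups overlapped with the non-stroked samples or reached above them. The ratio of Mfsd2a to Cdh5 was 0.652 ± 0.135 (n = 4) in non-stroked and 1.503 ± 0.0659 (n = 4) in stroked WT mice, in the latter from 1.44 to 1.59 over both prefixes. For Slc2a1 it was 3.76 ± 0.462 and 6.43 ± 0.605 (n = 4 each). Mean Cdh5 itself was 19.35 CPM in non-stroked and 15.5 CPM in stroked WT mice, and a lower Cdh5 raises these ratios. In Rag2-/- mice the Slc2a1 ratio overlapped, from 3.32 to 4.46 without and from 4.17 to 5.52 with stroke. The Mfsd2a ratio separated within each strain but not across strains. It reached 0.971 in non-stroked NSG mice and came down to 0.9425 in WT-Tacr delayed and 0.950 in stroked Rag2-/- mice. Without stroke the ratio of Slco1c1 to Cdh5 was 2.23 ± 0.358 (n = 4) for WT, 2.19 ± 0.242 (n = 3) for Rag2-/- and 3.42 ± 0.376 (n = 4) for NSG mice.

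**Figure D4:**
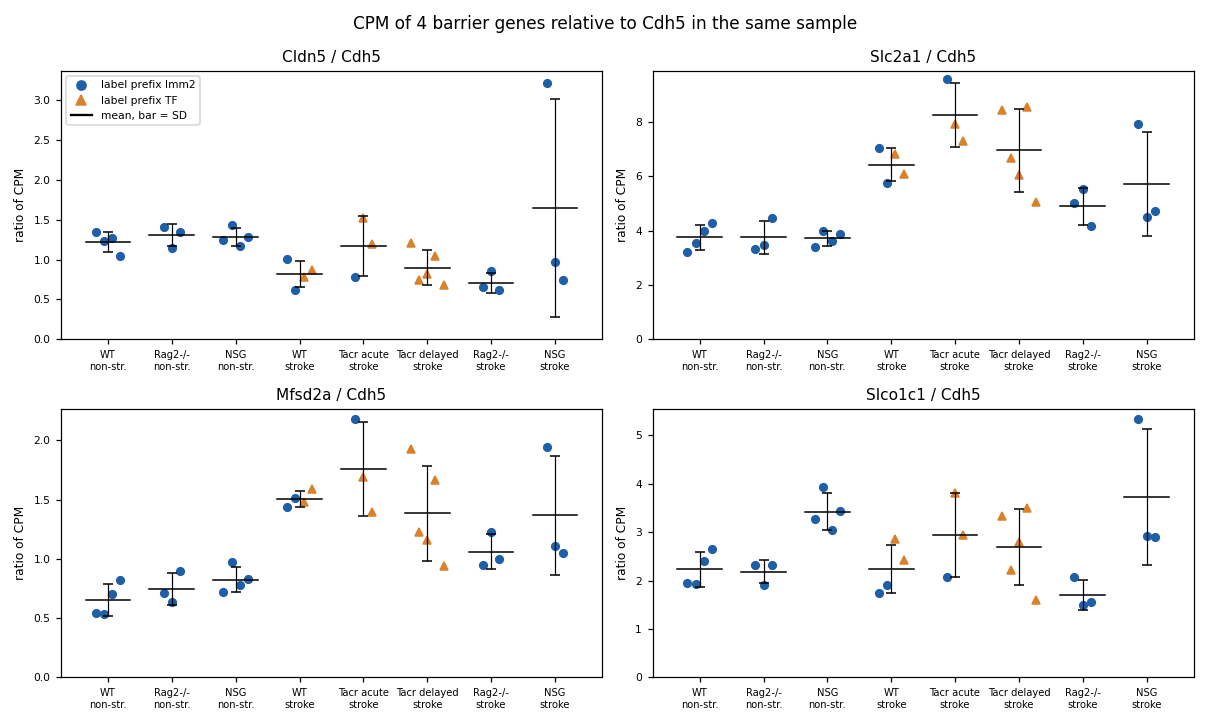
CPM of Cldn5, Slc2a1, Mfsd2a and Slco1c1 divided by the CPM of Cdh5 in the same sample (y axis, no unit) in 29 samples by group (x axis), with means, SDs and title prefixes. For Mfsd2a the 4 stroked WT samples lie between 1.44 and 1.59 and the 4 non-stroked ones between 0.537 and 0.818, while stroked NSG replicate 1 stands alone at 3.23 for Cldn5.

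The prefix was tested as a term of its own beside the 8 groups, a comparison that rests on stroked WT and WT-Tacr acute mice and was chosen after the levels by sample were seen. These samples include WT-Tacr acute replicates 1 and 2, whose file and title numbers differ, and replicate 1 is the only acute sample with Imm2. The values with the prefix as a covariate rest on the same samples. In stroked WT mice alone mean Cldn5 was 10.67 CPM in Imm2 and 14.55 CPM in TF samples. Of the 10 genes 6 differed, beside 27.6% of all genes. In detail 5 were higher in TF samples, beside 13.2% of all genes, and 1 was lower, beside 14.4%. Plvap was lower by 1.02 on the log2 scale (SE 0.14, adjusted p = 1.02e-05). Abcb1a was higher by 1.09 (SE 0.18, adjusted p = 9.53e-05), Slco1c1 by 0.999 (SE 0.16, adjusted p = 6.31e-05), Cldn5 by 0.74 (SE 0.26, adjusted p = 0.0362), Ocln by 0.70 (SE 0.18, adjusted p = 0.00617) and Pecam1 by 0.55 (SE 0.16, adjusted p = 0.0113). Slc2a1 (0.29, adjusted p = 0.0509), Mfsd2a (0.23, adjusted p = 0.167), Cdh5 (0.41, adjusted p = 0.11) and Tjp1 (0.02, adjusted p = 0.948) did not pass. Of 13 other endothelial genes 7 were higher and 0 lower in TF samples. The choroid plexus sum in stroked WT mice was 14.3 and 16.6 CPM in Imm2 and 165 and 272 CPM in TF samples, its part in these differences was not tested, and 0 of 9 of its markers passed. Of 5 neuron markers 3 were lower in TF samples, with Rbfox3 at -0.71 (adjusted p = 6.95e-05, edgeR), and 1 was higher. Of 6 microglia and macrophage markers 2 were higher and 0 lower. The part of these cells was not tested either.

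**Figure D5:**
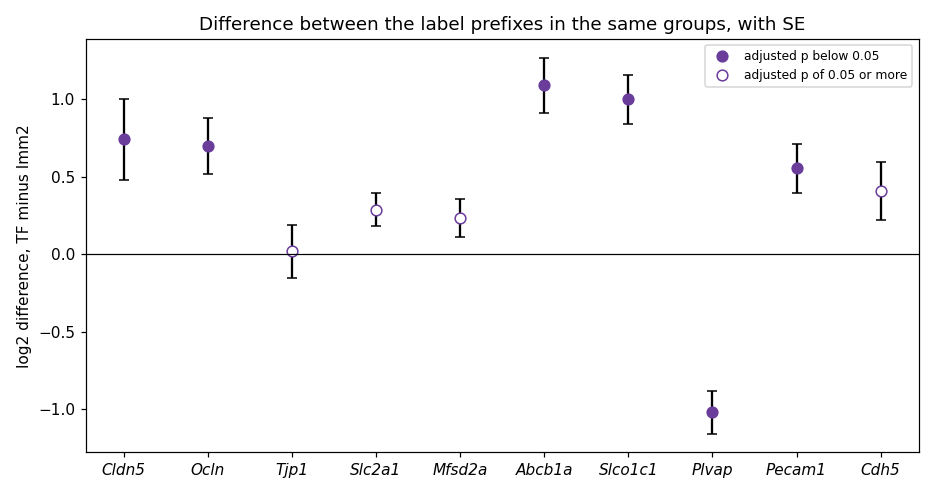
Difference between TF and Imm2 samples of the same groups (y axis, log2, with SE) for each of the 10 genes (x axis). Abcb1a and Slco1c1 lie near 1 and Plvap near -1, and Tjp1 lies at 0.02.

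Between the strains without stroke, edgeR called 0 of the 10 genes in NSG against WT mice (beside 9.76% of all genes), 0 in Rag2-/- against WT mice (0.00587%) and 0 in NSG against Rag2-/- mice (6.33%), and so did DESeq2. At an unadjusted p below 0.05 there were 0, 0 and 1 of 10, the last being Slco1c1. With only the groups compared in the fit, or with the prefix as a covariate, genes passed in both NSG comparisons, as counted below. The samples did not overlap for 3 of 10 genes between NSG and WT mice (beside 21.8% of all genes), for 0 between Rag2-/- and WT mice (9.44%) and for 2 between NSG and Rag2-/- mice (24.3%). For Slco1c1 the log2 difference was 0.60 (SE 0.24, adjusted p = 0.166) between NSG and Rag2-/- mice and 0.45 (SE 0.22, adjusted p = 0.23) between NSG and WT mice. Within Imm2, which holds these 11 samples and leaves out the TF samples from the estimate of the spread, Slco1c1 was higher in NSG than in Rag2-/- mice (0.60, SE 0.16, adjusted p = 0.0297, beside 6.98% of all genes), and against WT mice the value was 0.46 (adjusted p = 0.0539, beside 10.9%). The choroid plexus sum was 17.9 to 1225 CPM in non-stroked NSG mice and 8.49 to 12.9 CPM in non-stroked Rag2-/- mice, and its part in this difference was not tested.

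Among stroked mice, NSG differed from WT mice in 2 of 10 genes, beside 12.9% of all genes. Cldn5 was higher by 0.84 (SE 0.28, adjusted p = 0.0432) and Abcb1a was lower by 0.91 (SE 0.28, adjusted p = 0.0304). The Cldn5 call rested on stroked NSG replicate 1, without which the value was 0.28 (adjusted p = 0.545), and it was also lost without any 1 of the 4 stroked WT samples (adjusted p from 0.0576 to 0.102). The Abcb1a call was lost without stroked NSG replicates 1 or 3 (adjusted p = 0.141 and 0.064) or stroked WT replicates 3 or 4 (adjusted p = 0.161 and 0.0967), and the value within Imm2 was -0.19 (adjusted p = 0.614). Slco1c1, which over both prefixes had 0.62 (SE 0.24, adjusted p = 0.0867), was higher in stroked NSG than in stroked WT mice within Imm2 by 1.15 (SE 0.20, adjusted p = 0.00155, beside 4.79% of all genes), where 3 NSG samples from 46.3 to 61.5 CPM stood against 2 WT samples of 21.6 and 27.6 CPM. Stroked Rag2-/- mice differed from stroked WT mice in 0 of 10 genes (0.00587% of all genes, 1 gene at an unadjusted p below 0.05, 0 with DESeq2).

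Whether the stroke response itself differed between strains was tested as a difference of differences. In Rag2-/- against WT mice 0 of 10 genes passed (0% of all genes, 0 at an unadjusted p below 0.05, 0 with DESeq2), and in NSG against WT mice 0 of 10 (0.0294%, 2 at an unadjusted p below 0.05, 0 with DESeq2). The 2 were Cldn5 at 0.96 (95% confidence interval 0.18 to 1.73, adjusted p = 0.313), which rests on stroked NSG replicate 1 as above, and Mfsd2a at -0.38 (-0.75 to -0.01, adjusted p = 0.386). The Mfsd2a difference in Rag2-/- mice was -0.34 (-0.72 to 0.05). For Slc2a1 the intervals were -0.36 to 0.34 in Rag2-/- and -0.39 to 0.29 in NSG mice.

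Treatment was compared directly among stroked WT mice. WT-Tacr acute against WT mice and WT-Tacr delayed against WT mice gave 0 of 10 genes each (0% of all genes each, 0 and 1 at an unadjusted p below 0.05, 0 and 0 with DESeq2). WT-Tacr delayed against acute mice gave 0 of 10 beside 20.3% of all genes, with 2 at an unadjusted p below 0.05, Cdh5 at 0.50 (SE 0.19, adjusted p = 0.0677) and Abcb1a at 0.61 (SE 0.26, adjusted p = 0.0974). DESeq2 called 1, Cdh5 (0.50, adjusted p = 0.0462). Within TF, where the delayed group keeps 5, the acute group 2 and the WT group 2 samples, these 3 comparisons gave 0 of 10, and Cdh5 differed by 0.40 (adjusted p = 0.296) between delayed and acute mice.

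The genes around the barrier were read from lists, by their counts and medians in WT mice. Of 18 genes of the Wnt and β-catenin pathway 5 fell and 1 rose (median log2 fold change -0.06). The 1 that rose was Ctnnb1, the gene of β-catenin itself (0.43, adjusted p = 0.00736, edgeR). It did not pass within Imm2 (0.15, adjusted p = 0.316). Of all genes 11.6% fell and 15.2% rose in WT mice. The pathway's transcription factor Lef1 fell by 1.29 (adjusted p = 0.00011), its feedback target Axin2 by 0.52 (adjusted p = 0.00192), the forkhead gene Foxq1 by 0.95 (adjusted p = 0.00411) and the feedback inhibitor Nkd1 by 0.42 (adjusted p = 0.00496). Within Imm2, where 9.11% of all genes were called, 4 of 18 fell, among them Lef1 (-1.19, adjusted p = 0.0128) and Foxq1 (-1.16, adjusted p = 0.0155), while Axin2 (-0.30, adjusted p = 0.0755) and Nkd1 (-0.24, adjusted p = 0.188) did not pass. Most genes of this list are made by other brain cells as well. In the other stroke comparisons 4 of 18 fell in WT-Tacr acute (beside 2.36% of all genes that fell), 2 in Rag2-/- (1.53%) and 3 in NSG mice (8.89%). In WT-Tacr delayed mice 4 fell and 6 rose, beside 27.6% of all genes in each direction, so that the share of the list called was close to that of all genes.

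Of 13 other endothelial genes 3 fell in WT mice and 0 rose (median -0.32), namely the TGF-β co-receptor gene Eng by 0.56 (adjusted p = 0.0154), the VEGF receptor gene Kdr by 0.90 (adjusted p = 0.0196) and the angiopoietin receptor gene Tek by 0.57 (adjusted p = 0.0445). Of all genes 11.6% fell and 15.2% rose in WT mice, and within Imm2 9.11% were called. Within Imm2 4 of 13 fell (median -0.62), with Kdr at -1.45 (adjusted p = 0.0054). Of 11 genes tested of activated, sprouting or caveolar endothelium 5 rose and 0 fell (median 0.72). The leukocyte adhesion genes Icam1 and Vcam1 rose by 2.24 (adjusted p = 6e-05) and 0.73 (adjusted p = 0.00232), the caveolar gene Cavin1 by 0.87 (adjusted p = 0.00199) and the sprouting gene Angpt2 by 1.21 (adjusted p = 0.0123). Within Imm2 2 of 11 rose, Icam1 (1.82, adjusted p = 0.00031) and Cavin1 (0.63, adjusted p = 0.0106), while Vcam1 (0.39, adjusted p = 0.159) and Angpt2 (1.03, adjusted p = 0.149) did not pass. Glial and immune cells also make Icam1 and Vcam1.

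Of 10 other junction genes 1 rose, F11r (JAM-A, 0.83, adjusted p = 0.0013), and 1 fell, Cgn (cingulin, -0.55, adjusted p = 0.0421), with a median of -0.07. Of 12 other transporter and receptor genes 1 rose, the efflux pump gene Abcg2 (0.48, adjusted p = 0.043), and 1 fell, the cationic amino acid carrier gene Slc7a1 (-0.50, adjusted p = 0.0006), with a median of -0.05. In each direction 1 of 10 or 1 of 12 was no more than the share of all genes, of which 15.2% rose and 11.6% fell. Within Imm2 F11r (0.73, adjusted p = 0.0329) and Slc7a1 (-0.47, adjusted p = 0.0259) held, whereas Cgn (-0.34, adjusted p = 0.479) and Abcg2 (0.01, adjusted p = 0.971) did not pass. There 0 of the 12 transporter and receptor genes rose.

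Markers of the other cells in the piece moved with stroke in WT mice. Of all genes 15.2% rose and 11.6% fell there, and 9.11% were called within Imm2. Of 6 microglia and macrophage markers 5 rose, with Csf1r at 1.05 and Cd68 at 2.35, of 5 astrocyte markers 5 rose, with Gfap at 2.77, of 8 fibroblast markers 5 rose, with Lum at 4.20 and Col3a1 at 4.76, and of 5 neuron markers 3 fell, with Rbfox3 at -0.62. Summed astrocyte markers ran from 1011 to 1190 CPM without and from 2067 to 2497 CPM with stroke, and summed neuron markers from 6745 to 7514 and from 4470 to 6238 CPM. Summed fibroblast markers ran from 107 to 177 and from 384 to 786 CPM, and summed microglia and macrophage markers from 156 to 181 and from 297 to 373 CPM. Of 11 pericyte and smooth muscle markers 2 rose, Anpep (1.56) and Tagln (1.07). The others did not pass, with Abcc9 (-0.37), Rgs5 (-0.29), Kcnj8 (-0.20) and Pdgfrb (-0.01) below 0. Higd1b (0.55), Acta2 (0.45), Vtn (0.25), Myh11 (0.09) and Cspg4 (0.08) were above 0. Of 5 platelet and red cell markers tested 2 rose, Itga2b (0.90) and Pf4 (1.51). The red cell markers Hba-a1 (-1.45), Hbb-bs (-1.43) and Alas2 (-0.81) did not pass. Of 4 oligodendrocyte and 9 choroid plexus markers 0 passed. Within Imm2 5 of 6 microglia and macrophage, 3 of 5 astrocyte and 5 of 8 fibroblast markers rose, but 0 of 5 neuron markers fell, with Rbfox3 at -0.29 (adjusted p = 0.19), and neither Tagln (0.61, adjusted p = 0.0721) nor Pf4 (1.01, adjusted p = 0.244) passed. No defining marker of astrocytes, microglia, fibroblasts or neurons was at 0. Their part in the values of the barrier genes was not tested.

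Likeness was read as the correlation of log2 CPM over the 29 samples, which share prefix, stroke and strain, so that it is a description without a test. The 3 genes closest to Cldn5 were Kdr (Pearson r = 0.78), Rtn4ip1 (0.75) and Kank4 (0.75). Those closest to Slco1c1 were Ipp (0.85), the endothelial gene Mmrn2 (0.84) and Bcam (0.80), and those closest to Plvap were Gm49776, Keap1 and Nabp2 (0.93 each). Among the 10 genes themselves the highest r was 0.89, between Slc2a1 and Mfsd2a, and the lowest was -0.75, between Abcb1a and Plvap. Cldn5 had an r of 0.63 with Slco1c1, 0.26 with Cdh5 and -0.46 with Mfsd2a. The r between Pecam1 and Cdh5 was 0.69.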

How the data were processed

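The authors deposited raw counts of reads per Ensembl gene for 29 samples, not normalized. According to the study's methods, RNA was selected for polyA, stranded libraries were prepared, and a core facility aligned and counted the reads. The aligner, the genome build and the strand setting of the counting are not given in the sources used here. GENCODE M21 (GRCm38) supplied symbols and positions for 25712 of 25746 IDs, and RefSeq the promoters. Groups, replicates and title prefixes come from the sample labels, and the days and ages from the labels or the study's methods. The labels number the samples of a group separately and do not say whether they come from separate litters. Each p-value weighs a difference against the spread between these samples within groups.

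Counts were fitted in R 4.3.3 with edgeR 4.0.16 (TMM, filterByExpr by group, quasi-likelihood F test) in 1 fit of 8 groups, adjusted by Benjamini-Hochberg over 17031 genes at 0.05 with no minimum fold. The SE is the absolute log2 fold change divided by the square root of F. CPM uses TMM-adjusted library sizes. Log2 CPM for correlations used a prior count of 2. Alternatives were RLE normalization, no filter, a minimum absolute log2 fold change of 1, the prefix as a covariate, fits within a prefix or of only the groups compared, DESeq2 1.42.0, a replicate block and leaving out each sample. The prefix test, the average over strains, leaving out both unusual acute samples and the values of Abcb1b and Gtpbp3 were added after the data were seen. The fit was tested on simulated data. All 10 genes are named. From each other list, up to 4 genes with the smallest p in stroked WT mice among those passing are named, and other genes were named after their values were seen. The genes and lists were chosen with earlier results of these data known.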

Additional observations from a re-analysis of the deposited data

Results flagged for a closer look

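Within the groups of 4 or 5 samples, 40 sets of values of the 10 genes were examined for a sample far from the others, and 2 were found, which is the 2 that chance gives at 1 in 20. The Cldn5 level in non-stroked NSG replicate 1 was 24.1 CPM, whereas the other 3 samples of that group lay between 21.1 and 21.4 CPM. This sample also had the highest choroid plexus marker sum of its group, 1225 CPM. The Pecam1 level in WT-Tacr delayed replicate 5 was 27.2 CPM, whereas the other 4 samples lay between 18.1 and 19.9 CPM. In the same sample Abcb1a at 62.3 CPM and Cdh5 at 27.6 CPM were the highest of the 29 samples, and Cldn5 at 18.7 CPM was the highest of its group. No difference of the stroke response between strains passed its test for any of the 10 genes.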

How the results depend on the processing

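Of 2380 values of single genes under the alternatives, 2293 kept their side of the threshold, 35 passed only under an alternative, 50 passed only in the fit reported, and 2 reversed while called. Another 179 values that had not passed changed sign. With the prefix as a covariate the WT-Tacr delayed values of Abcb1a and Plvap became -0.30 and 0.32. The larger changes in the number of the 10 genes called were these. With a minimum absolute log2 fold change of 1 it was 0 in each of the 5 stroke comparisons and in stroked NSG against WT mice, since no called value reached 1. With the prefix as a covariate it was 1 in WT-Tacr acute mice, 1 in non-stroked NSG against WT and 1 in non-stroked NSG against Rag2-/- mice. With only the groups compared it was 1 for stroke in NSG, 2 and 1 for the same non-stroked pairs and 0 for stroked NSG against WT mice. Within Imm2 it was 1 for non-stroked NSG against Rag2-/- (beside 6.98% of all genes) and 1 for stroked NSG against WT mice (4.79%). DESeq2 gave 1 for WT-Tacr delayed against acute mice, and called Cldn5 in addition for stroke in WT-Tacr delayed (6 genes against 5) and in Rag2-/- mice (3 against 2). The causes were not tested. Leaving out 1 sample at a time gave 1 to 3 genes for stroke in NSG, 0 to 2 in Rag2-/-, 1 to 3 in WT-Tacr acute and 0 to 3 for stroked NSG against WT mice, and 0 to 1 for WT-Tacr delayed against acute and against WT mice. Apart from those within Imm2, these counts are given without the share of all genes and describe the processing only.

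Replicate numbers are shared by non-stroked mice of different strains only. Samples of the same number did not deviate together (r from -0.26 to 0.11). With the replicate block 2 of the 10 genes passed in NSG against WT and 1 in NSG against Rag2-/- mice, and without the block the same samples gave 2 and 1. Here too the share of all genes is not given. No paired analysis was possible for the comparisons with stroked mice because the titles of stroked samples carry no replicate number of that kind. The lowest count of the 10 genes in any sample was 142 (Ocln), and group sizes of 3 to 5 limit the precision.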

Other observations

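Abcb1b, the paralog of Abcb1a, was nearly missing from the libraries of NSG mice. It measured 0.124 to 0.527 CPM in non-stroked and 0.367 to 0.741 CPM in stroked NSG samples, and 2.61 to 6.99 CPM in the 22 samples of WT and Rag2-/- mice, so that the strains did not overlap. It was lower in non-stroked NSG than in non-stroked WT mice by 3.49 on the log2 scale (SE 0.27, adjusted p = 5.6e-10, edgeR) and lower in stroked NSG than in stroked WT mice by 3.07 (SE 0.28, adjusted p = 1.2e-08). Abcb1b made up 0.731% to 4.64% of the summed CPM of both genes in NSG samples and 10.1% to 19.1% in the other samples. The sum of both genes was 16.9 to 20.7 CPM in non-stroked NSG and 24.5 to 30.5 CPM in non-stroked WT mice. The stroke response of Abcb1b was 0.58 (SE 0.22, adjusted p = 0.0488) in WT, 0.71 (SE 0.21, adjusted p = 0.00629) in WT-Tacr delayed and 0.99 (SE 0.32, adjusted p = 0.0264) in NSG mice, and it did not pass in WT-Tacr acute (0.40, adjusted p = 0.267) or Rag2-/- mice (0.39, adjusted p = 0.396). The NSG response rests on low counts of Abcb1b, 18, 11, 9 and 4 reads without and 26, 30 and 12 reads with stroke. The WT-Tacr delayed value compares TF with Imm2 samples. In stroked WT mice mean Abcb1b was 4.42 CPM in Imm2 and 5.695 CPM in TF samples. How reads were divided between these genes, and how reads of the NSG strain matched the reference, was not tested. Abcb1b was looked up after the values of Abcb1a were seen.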
